A study of Rattus norvegicus with 6 samples.

Results

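The 9 genes that encode the subunits of the Arp2/3 complex were followed in cultured vascular smooth muscle (VSM) cells from the soleus feed artery (SFA), the vessel that supplies the soleus muscle of the hindlimb. The genes Actr2, Actr3, Arpc1a, Arpc1b, Arpc2, Arpc3, Arpc4, Arpc5 and Arpc5l were taken by symbol from a table of 14475 genes, and 9 of 9 were found there. The rats were male Fischer 344 animals aged 4 months (young) or 24 months (old), with 3 rats and 3 RNA sequencing libraries in each group. The labels name no transgene, deletion or drug treatment in either group. All cells had been grown in culture before RNA was taken, so the values describe cultured cells of each age and not the intact artery wall.

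The Arp2/3 complex starts new actin filaments as branches on the side of existing ones. Arp2, encoded by Actr2, and Arp3, encoded by Actr3, resemble actin and together form the template from which the branch grows. The products of Arpc2 and Arpc4 form the backbone that grips the mother filament, those of Arpc3 and Arpc5 help to hold Arp3 and Arp2, and the WD-repeat subunit encoded by Arpc1a or Arpc1b contributes to contacts with activators. Arpc1a and Arpc1b, like Arpc5 and Arpc5l, are paralogs of which a single complex carries one, and complexes built with the Arpc1b and Arpc5l products are known to be the more active. In smooth muscle cells, branched actin is known for its part in lamellipodia, in the cortex and in the remodeling of actin that accompanies contraction.

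The libraries held between 44235674 and 59700887 counts. Of the 8 listed smooth muscle markers, 8 were measured, and their summed level lay between 11207 and 20995 counts per 1e6 library counts (CPM) in young and between 3448 and 5562 CPM in old libraries. Old replicate 1 stood apart from the other old libraries for the Arp2/3 genes: it had the highest CPM of the 3 old libraries in 9 of 9 subunits, as it did in 36.1% of all genes. The subunit results below are therefore given with and without it. Because each library pools the RNA of many cells, fewer cells of a type and less RNA per cell cannot be told apart.

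With all 6 libraries, 0 of the 9 subunit genes were differentially expressed (DEGs) between old and young VSM cells. A DEG had an adjusted p under 0.05 by the quasi-likelihood F test of edgeR with Benjamini-Hochberg adjustment, together with a log2 fold change of 1 or more in either direction. These criteria were met by 1 gene of all 14475, or 0.00691%. The adjusted p of the subunits ran from 0.149 to 0.627, and 2 of the 9, Actr2 and Arpc4, had an unadjusted p under 0.05, as did 22.6% of all genes. The fitted log2 fold change, old over young, was negative for 8 subunits and positive for 1, Arpc1b, and its median was −0.30 against 0.018 over all genes. For 3 subunits, Actr2, Arpc2 and Arpc4, all old values were under all young ones, whereas 14.7% of all genes were separated in that direction. No subunit had its old libraries above the young, which was the case for 14.5% of all genes, and the groups overlapped for the other 6.

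With DESeq2, 0 of the 9 subunits passed the same thresholds, against 5.68% of the genes with an adjusted p. Actr2 alone passed an adjusted p under 0.05 at any fold in DESeq2, as did 12.5% of those genes. By limma-voom the lowest adjusted p of a subunit was 0.14. The 95% interval of the log2 fold change stayed within 1 in either direction for 8 subunits, the exception being Actr2.

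**Figure D1:**
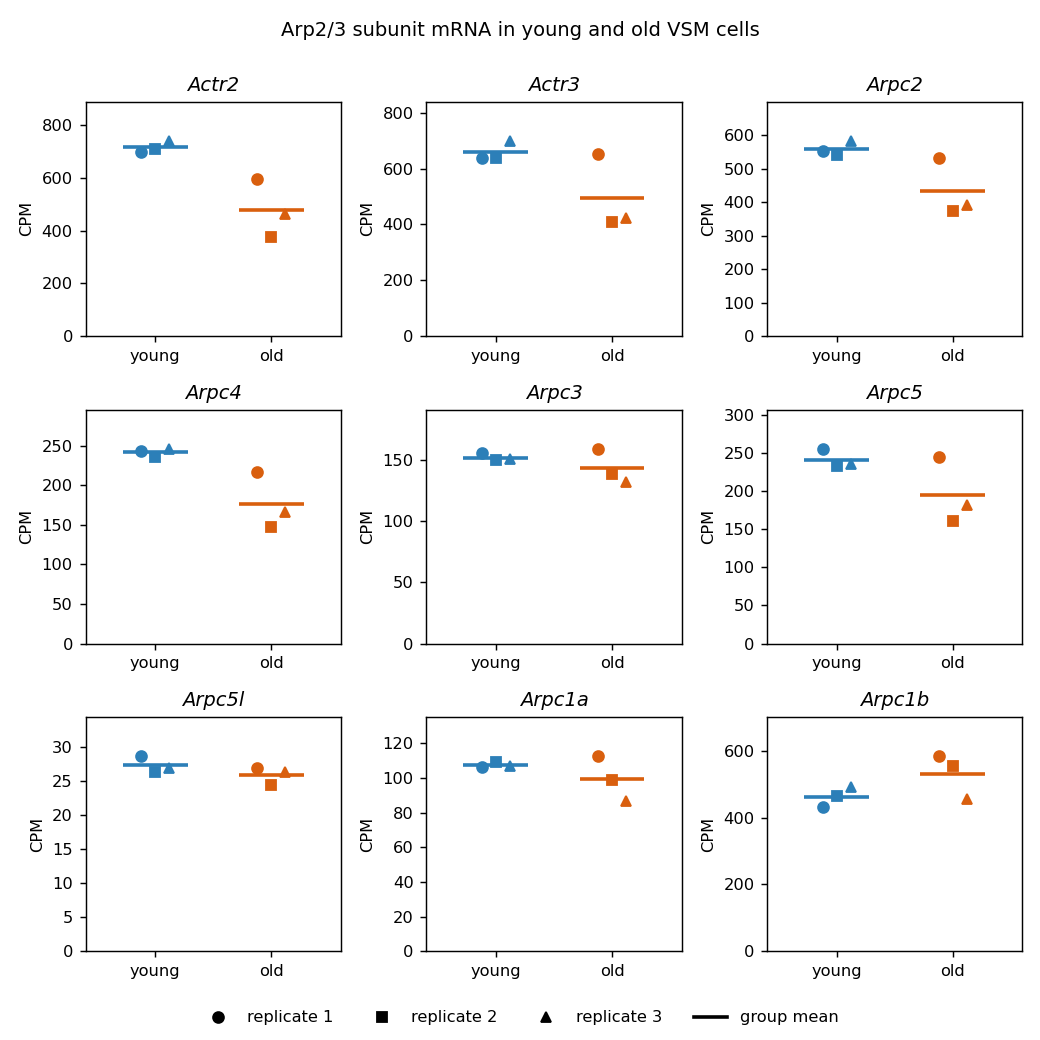
CPM of each Arp2/3 subunit gene in the 3 young and 3 old libraries of cultured SFA VSM cells, with points for libraries and bars for the group mean. Old replicate 1 was the highest old library in 9 of 9 genes, and the young and old points were separate only for Actr2, Arpc2 and Arpc4.

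The actin-related subunits had, together with Arpc4, the most negative fold changes of the complex. Actr2 (ENSRNOG00000004959) was at 699, 711 and 740.1 CPM in young replicates 1 to 3 and at 595, 375 and 464 CPM in old replicates 1 to 3. All 3 old libraries were therefore below the lowest young one, with old replicate 1 nearest to the young. The means were 717 ± 21.2 CPM in young and 478 ± 110.5 CPM in old cells (SD, n = 3 each), and the log2 fold change was −0.58 (SE 0.18, 95% interval −1.02 to −0.15, adjusted p = 0.149 by edgeR and 0.0337 by DESeq2). Actr3 (ENSRNOG00000003206) was at 639, 638 and 699 CPM in young libraries and at 651, 409.8 and 424 CPM in old ones. Old replicate 1 lay within the young range and the other two old libraries were well below it. The mean was 659 ± 34.9 CPM in young against 495 ± 135 CPM in old cells, a log2 fold change of −0.41 (SE 0.20, 95% interval −0.90 to 0.071, adjusted p = 0.271 by edgeR).

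The backbone subunits Arpc2 and Arpc4 gave a similar picture. Arpc2 (ENSRNOG00000014289) was at 554, 540.1 and 583 CPM in young and at 531, 374 and 392 CPM in old libraries. The groups did not overlap, but old replicate 1 was 95.03% of the young mean whereas old replicates 2 and 3 were 66.9% and 70.1% of it. The means were 559 ± 22.02 and 432 ± 86.0 CPM, with a log2 fold change of −0.37 (SE 0.16, 95% interval −0.75 to 0.014, adjusted p = 0.230 by edgeR). Arpc4 (ENSRNOG00000008994), the partner of Arpc2 in the backbone, was at 243, 235.5 and 246 CPM in young and at 216, 147 and 166 CPM in old libraries. Its young libraries were close together and all old ones were lower. The mean went from 242 ± 5.58 CPM in young to 177 ± 35.6 CPM in old cells, and the log2 fold change was −0.45 (SE 0.15, 95% interval −0.82 to −0.083, adjusted p = 0.169 by edgeR and 0.0765 by DESeq2).

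The subunits that hold Arp2 and Arp3 in place were less uniform. Arpc5 (ENSRNOG00000028062) was at 255.5, 232 and 235 CPM in young and at 244, 160.1 and 182 CPM in old libraries. Old replicate 1 was again within the young range, and the mean of 241 ± 12.7 CPM in young compared with 195 ± 43.5 CPM in old cells (log2 fold change −0.30, SE 0.17, 95% interval −0.71 to 0.10, adjusted p = 0.319 by edgeR). Its paralog Arpc5l (ENSRNOG00000014317) was at 28.7, 26.4 and 27.0 CPM in young and at 27.0, 24.5 and 26.4 CPM in old libraries. The old libraries were in the young range or under it, and the log2 fold change was −0.078 (SE 0.088, 95% interval −0.29 to 0.13, adjusted p = 0.612 by edgeR). Arpc3 (ENSRNOG00000008673), a small subunit that binds Arp3, was at 155.5, 149.7 and 151 CPM in young and at 159, 139 and 132 CPM in old libraries. Old replicate 1 was above all 3 young libraries and the other old ones were below them, giving a log2 fold change of −0.086 (SE 0.10, 95% interval −0.33 to 0.16, adjusted p = 0.627 by edgeR).

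The WD-repeat paralogs had fold changes of opposite sign, neither of which passed the test. Arpc1a (ENSRNOG00000000996) was at 107, 109 and 107 CPM in young and at 112.5, 98.9 and 86.9 CPM in old libraries. Its old libraries fell on both sides of a narrow young range, with a log2 fold change of −0.11 (SE 0.11, 95% interval −0.39 to 0.16, adjusted p = 0.562 by edgeR). Arpc1b (ENSRNOG00000000991), the single subunit with a positive fold change, was at 433, 464 and 491 CPM in young and at 583, 554 and 456 CPM in old libraries. Old replicates 1 and 2 were above all young libraries and old replicate 3 was inside their range. The mean was 463 ± 29.0 CPM in young and 531 ± 66.4 CPM in old cells, a log2 fold change of 0.20 (SE 0.13, 95% interval −0.12 to 0.52, adjusted p = 0.395 by edgeR).

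**Figure D2:**
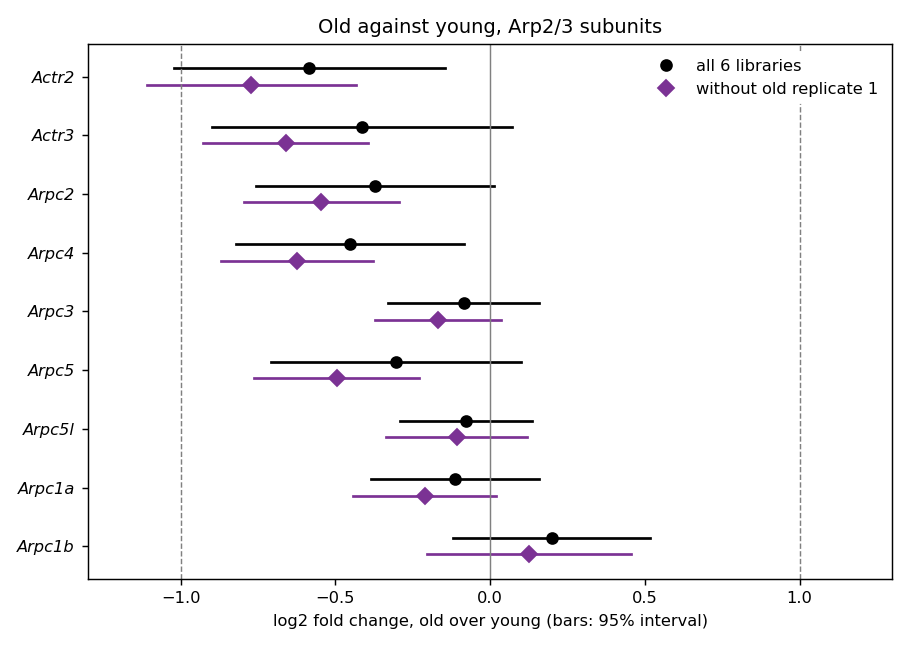
Log2 fold change, old over young, of each Arp2/3 subunit gene with its 95% interval from edgeR, for all 6 libraries and without old replicate 1. The interval with all libraries excluded 0 for Actr2 and Arpc4 only. Without old replicate 1 the estimates of 9 of 9 genes were lower, which follows from its being the highest old library for each of them.

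The spread of the old libraries was wide for most subunits. The coefficient of variation of CPM had a median of 3.94% over the 9 genes in young libraries (range 1.29% to 6.26%) and 19.9% in old ones (range 5.07% to 27.3%). Over the 8843 genes with a mean of at least 10 CPM the medians were 8.15% and 12.5%. Old replicate 1 was below the young range for 3 subunits, above it for 3 and within it for 3. Old replicate 2 was below the young range for 8 subunits and above it for Arpc1b, and old replicate 3 was below it for 8 and within it for Arpc1b. Among all genes, 35.4% were below and 37.99% above the young range in old replicate 2, and 36.1% and 37.7% in old replicate 3.

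Without old replicate 1 the fit gave lower estimates for 9 of 9 subunits. Again 0 of 9 subunits were DEGs, against 5.06% of all genes, because none reached the fold limit. At any fold, 5 of 9 subunits had a lower estimate in old cells with an adjusted p under 0.05 by edgeR. These were Actr2, Actr3, Arpc2, Arpc4 and Arpc5, whereas 5.80% of all genes were lower by this criterion. The log2 fold change was −0.77 for Actr2 (SE 0.13, adjusted p = 0.0348 by edgeR) and −0.66 for Actr3 (SE 0.10, adjusted p = 0.0325). For Arpc4 the log2 fold change was −0.62 (SE 0.096, adjusted p = 0.0315), for Arpc2 −0.55 (SE 0.099, adjusted p = 0.0377) and for Arpc5 −0.50 (SE 0.10, adjusted p = 0.0496). Arpc3, Arpc5l, Arpc1a and Arpc1b did not pass, with log2 fold changes of −0.17, −0.11, −0.21 and 0.13. With this library left out, 8 subunits had both remaining old libraries below all young ones, as did 25.8% of all genes. With all 6 libraries, edgeR at any fold called 0 subunits and 1 gene of the table. Old replicate 1 was the highest old library for 9 of 9 subunits, so the lower estimates without it were fixed in advance. The SE of the 5 subunits under 0.05 was also smaller without it. The library was singled out by these same values, so the adjusted p of this fit are not a test of a change with age. Leaving out old replicate 1 is 1 of 6 such fits, and its combination with no fold limit was added after the values were seen. In each of the others no subunit had an adjusted p under 0.05 by edgeR at any fold. The lowest was 0.273, for Actr2 without young replicate 1.

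Upstream sequence is shown for the subunit with the most negative fold change, for its partner in the template, and for the single subunit with a positive fold change. The windows come from the RefSeq promoter table of the rat assembly GRCr8, in which 8 of the 9 members had an entry, and Arpc1a did not. The bases before the annotated start of the gene were kept where they lay outside its own transcripts, and each is written 5′ to 3′ on the strand of the gene. Capitals mark the ETS motif CCGGAAG, the sequence recognized by the ETS family of transcription factors, on either strand. Actr2 is at chr14:98535093-98535342 (minus strand), Actr3 at chr13:39396510-39396759 (minus strand) and Arpc1b at chr12:14609502-14609738 (minus strand).
Actr2: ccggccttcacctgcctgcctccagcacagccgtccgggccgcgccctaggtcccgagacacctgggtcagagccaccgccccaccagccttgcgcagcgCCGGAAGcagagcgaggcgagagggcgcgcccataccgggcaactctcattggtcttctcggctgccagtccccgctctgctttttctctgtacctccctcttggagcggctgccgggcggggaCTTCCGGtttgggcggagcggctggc
Actr3: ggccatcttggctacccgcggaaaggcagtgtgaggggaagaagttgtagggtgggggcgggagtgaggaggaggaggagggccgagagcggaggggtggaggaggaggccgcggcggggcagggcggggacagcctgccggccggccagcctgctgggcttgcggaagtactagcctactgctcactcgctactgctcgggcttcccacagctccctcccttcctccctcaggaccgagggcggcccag
Arpc1b: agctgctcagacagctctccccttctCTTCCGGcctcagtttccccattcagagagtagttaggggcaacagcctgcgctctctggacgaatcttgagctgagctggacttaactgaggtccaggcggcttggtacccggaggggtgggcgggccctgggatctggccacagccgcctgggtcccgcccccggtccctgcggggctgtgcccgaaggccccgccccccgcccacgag

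The Actr2 window held 2 ETS matches, the Arpc1b window 1 and the Actr3 window 0. Searched over the 250 bases before the start on both strands, the motif was present in 4 of the 8 members (Actr2, Arpc1b, Arpc3 and Arpc4). It occurred in 7.74% of 27457 RefSeq promoters and in 14.9% of the 10534 that belong to genes of the table. The GC box GGGCGG was found in 6 of 8 members, and in 58.2% of the promoters of table genes. The TEAD motif GGAATG was in 1 of 8 (Arpc2) against 9.88% of those promoters. No member window held the AP-1 motif TGANTCA, in which N is any base, or the CArG box bound by serum response factor, which were in 4.37% and 1.19% of the promoters of table genes. The ETS and TEAD motifs share the letters GGAA, no motif contains another, and a match is a description of letters, not of binding. Arpc1a and Arpc1b are adjacent coding genes in the RefSeq annotation.

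Ratios of paralog counts within a library do not depend on library size. The ratio of Arpc1b to Arpc1a counts was 4.06, 4.25 and 4.58 in young and 5.18, 5.59 and 5.25 in old libraries. All old ratios, that of old replicate 1 included, were above all young ones. The mean ratio was 4.30 ± 0.263 in young and 5.34 ± 0.220 in old cells, a difference of 0.31 on the log2 scale, or 1.24-fold (two-sided exact permutation test, p = 0.10, the smallest that 3 against 3 libraries can give, adjusted p = 0.30 over 3 ratios). This permutation test thus could not pass a threshold of 0.05, and the ratio of counts is not a ratio of molecules because the transcripts differ in length.

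The ratio of Arpc5l to Arpc5 counts was 0.112, 0.114 and 0.115 in young and 0.111, 0.153 and 0.145 in old libraries. Old replicates 2 and 3 were above the young ratios and old replicate 1 was below them, so the groups overlapped (difference of 0.25 on the log2 scale, two-sided exact permutation p = 0.40, adjusted p = 0.60). Actr3b, a paralog of Actr3 that is not among the 9 genes, was present at 0.00493 to 0.00739 of the Actr3 count, and its ratio did not separate the ages either (difference of 0.16 on the log2 scale, two-sided exact permutation p = 0.70, adjusted p = 0.70).

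**Figure D3:**
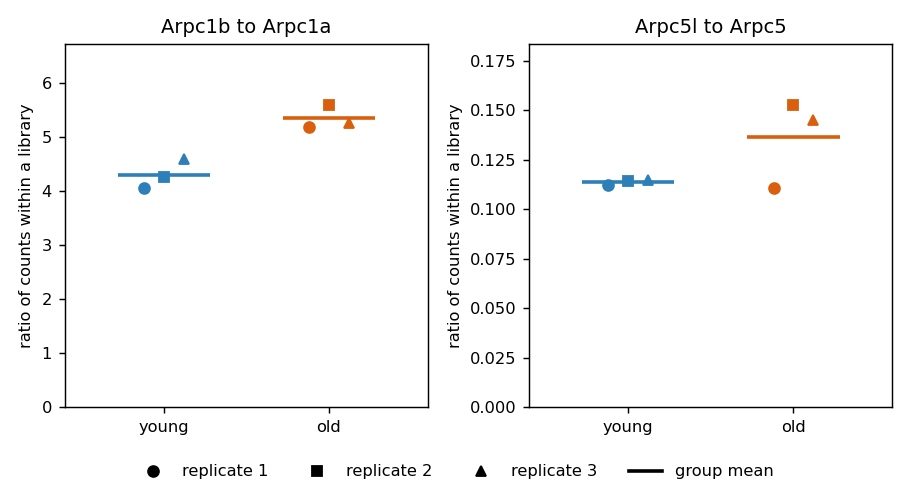
Ratio of paralog counts within each young and old library for Arpc1b to Arpc1a and Arpc5l to Arpc5, with points for libraries and bars for the group mean. The Arpc1b to Arpc1a ratios of the old libraries, 5.18 to 5.59, lay above the young ones, 4.06 to 4.58, and the Arpc5l to Arpc5 ratios overlapped.

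Lists of genes around the complex were compared through the same fit. In these lists 0 genes were DEGs by edgeR, against 0.00691% of all genes. DESeq2 called Coro1c, listed with the inhibitors, and Diaph3, a formin, against 5.68% of the genes it tested. Of 9 measured genes of the WAVE complex, which carries Rac signals to Arp2/3, 6 had a negative and 3 a positive log2 fold change. The median was −0.16, and 0 had an unadjusted p under 0.05, against 22.6% of all genes. Nckap1, a scaffold of that complex, was at 425, 455 and 442 CPM in young and 406, 346 and 380.3 CPM in old libraries. The ages were separate, but the log2 fold change of −0.22 (SE 0.11, adjusted p = 0.261 by edgeR) did not pass. Cyfip1, its partner in the scaffold, had means of 188 ± 17.1 and 176 ± 9.55 CPM, and the low Cyfip2 had means of 0.843 ± 0.466 and 0.393 ± 0.0595 CPM.

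Of 13 measured activators of the WASP and WASH type, 4 had a negative and 9 a positive fold change, with a median of 0.19, while 48.0% of all genes were negative. All old libraries were above the young for 5 of them and below for 1, against 14.5% and 14.7% of all genes. Of the 13, 2 reached an unadjusted p under 0.05, both higher in old cells, against 22.6% of all genes. Washc3, a subunit of the WASH complex that drives branched actin on endosomes, was at 34.2, 34.9 and 30.6 CPM in young and 42.7, 44.1 and 46.8 CPM in old libraries. Every old library was above the young, with a log2 fold change of 0.42 (SE 0.092, adjusted p = 0.0897 by edgeR and 0.0031 by DESeq2). Washc1, which holds the Arp2/3-activating end of the WASH complex, had means of 20.7 ± 0.587 and 28.5 ± 6.48 CPM (log2 fold change 0.47, SE 0.17, adjusted p = 0.193 by edgeR), with old replicate 1 at 21.6 CPM just above the young. Without old replicate 1 both passed 0.05 at any fold, as did 1380 of all 14475 genes. The log2 fold changes were 0.63 for Washc1 (adjusted p = 0.0330 by edgeR) and 0.45 for Washc3 (adjusted p = 0.0492). Washc4 overlapped, at 159 ± 7.56 and 181 ± 18.6 CPM. Washc2c, Washc5 and Wasl also had all old libraries above the young and were chosen for mention after their values were seen, with log2 fold changes of 0.37, 0.38 and 0.26 and adjusted p of 0.229, 0.240 and 0.242 by edgeR. Cttn, or cortactin, which stabilizes branches, had means of 363 ± 28.9 and 353 ± 50.3 CPM.

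Among 12 measured genes of the inputs from Rac and Cdc42, 9 had a negative fold change and the median was −0.12. The list had 2 genes lower and 1 higher in old cells at an unadjusted p under 0.05, against 22.6% of all genes in both directions together. The GTPases themselves overlapped between the ages, Rac1 at 237 ± 20.7 and 210 ± 32.5 CPM and Cdc42 at 496 ± 40.2 and 423 ± 52.8 CPM. Abl1, a tyrosine kinase that acts on WAVE and other actin regulators, was at 192, 191 and 207 CPM in young and 141, 159 and 123 CPM in old libraries. The old libraries were all lower, old replicate 1 among them (log2 fold change −0.48, SE 0.12, adjusted p = 0.107 by edgeR and 0.00855 by DESeq2). Trip10, a Cdc42-binding membrane-bending protein, went the other way at 65.3 ± 6.42 and 86.9 ± 9.27 CPM (log2 fold change 0.41, SE 0.12, adjusted p = 0.137 by edgeR and 0.0456 by DESeq2).

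Genes that inhibit the complex or take branches apart had 6 negative and 4 positive fold changes among 10 measured, with a median of −0.078. Of the 10, 2 were lower at an unadjusted p under 0.05, against 22.6% of all genes in both directions together. Coro1c, a coronin that binds Arp2/3 and branch junctions, was at 362, 404 and 544 CPM in young and 285, 182 and 189 CPM in old libraries. All old libraries were below the young, with a log2 fold change of −0.997 (SE 0.24) and an adjusted p of 0.101 by edgeR and 0.00274 by DESeq2, where it was called a DEG. Without old replicate 1 its log2 fold change was −1.23 with an adjusted p of 0.0330 by edgeR. Gmfg, a debranching factor, had means of 17.4 ± 1.97 and 12.1 ± 2.84 CPM (log2 fold change −0.52, SE 0.19, adjusted p = 0.192 by edgeR), and its paralog Gmfb had means of 213 ± 37.8 and 192 ± 39.7 CPM.

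Capping protein, which ends the growth of branches, its regulators and a separate filament-capping gene, Capg, were measured through 9 genes. Of these, 0 were separate between the ages and 0 had an unadjusted p under 0.05. Among all genes, 14.7% had all old libraries below the young, 14.5% had them above, and 22.6% had such a p. The median log2 fold change was −0.042. Capzb had means of 372 ± 16.7 and 376 ± 32.5 CPM, and Capza1 had means of 243 ± 3.97 and 216 ± 27.2 CPM. The lowest unadjusted p belonged to Twf2, at 13.7 ± 1.66 and 11.5 ± 0.772 CPM, and Carmil3, at 1.04 ± 0.334 and 2.04 ± 1.24 CPM.

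The formins and other nucleators of unbranched filaments had 11 negative and 3 positive fold changes among 14 measured genes, with a median of −0.26. The values ran from −1.53 for Diaph3 to 1.35 for a low gene, at 0.413 ± 0.298 and 1.05 ± 0.401 CPM. In each direction 1 gene had an unadjusted p under 0.05, against 22.6% of all genes in both directions together. Diaph3 was at 133, 112 and 185 CPM in young and 96.3, 33.1 and 19.4 CPM in old libraries. Old replicate 1 was again nearest to the young (adjusted p = 0.199 by edgeR and 0.0439 by DESeq2, where it was called a DEG), and without it the log2 fold change was −2.45 with an adjusted p of 0.0293 by edgeR. Fmnl2, a formin of lamellipodia and filopodia, was higher in every old library, at 37.8 ± 5.91 and 63.0 ± 14.8 CPM (log2 fold change 0.74, SE 0.21, adjusted p = 0.127 by edgeR and 0.0256 by DESeq2). Diaph1 at 161 ± 39.5 and 134 ± 18.3 CPM and Inf2 at 123 ± 4.29 and 117 ± 10.5 CPM overlapped.

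The actin-related proteins outside the Arp2/3 complex had 3 of 8 measured genes with all old libraries below the young and 0 above (14.7% and 14.5% of all genes). The median was −0.10, and 1 had an unadjusted p under 0.05, against 22.6% of all genes. Actr1a, the filament-forming subunit of dynactin, was at 221, 225 and 247 CPM in young and 199, 179 and 188 CPM in old libraries (log2 fold change −0.29, SE 0.095, adjusted p = 0.162 by edgeR and 0.0452 by DESeq2). Actr5, a subunit of the INO80 chromatin remodeler, had means of 4.99 ± 0.466 and 4.17 ± 0.178 CPM. Actr10, another dynactin subunit, had means of 83.1 ± 5.33 and 88.2 ± 4.82 CPM and overlapped. Without old replicate 1, Washc1, Washc3, Coro1c and Diaph3 were the named genes of these lists with an adjusted p under 0.05 by edgeR. Gmfg was the next (log2 fold change −0.71, adjusted p = 0.0544). Of all 14475 genes, 1380 passed in that fit at any fold. The genes named include those picked for a low p with all libraries.

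**Figure D4:**
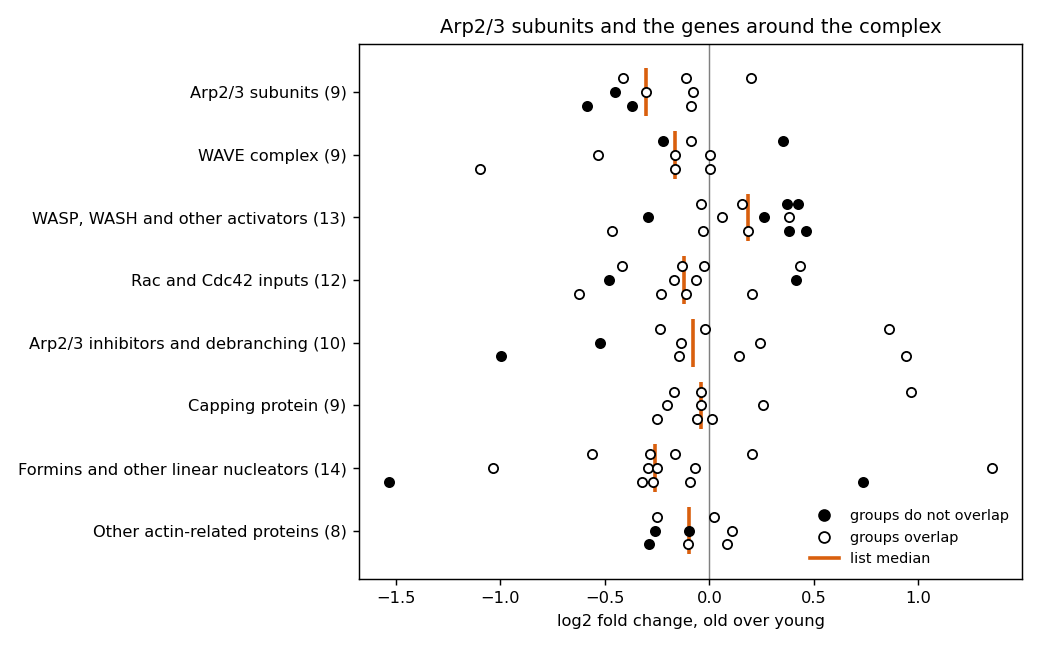
Log2 fold change, old over young, of every measured gene in the Arp2/3 subunit list and in the 7 lists around it, with points for genes and a bar for the list median. The median was −0.30 for the subunits, 0.19 for the WASP, WASH and other activators and −0.26 for the formins. In these lists 0 genes were called by edgeR, against 0.00691% of all genes.

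The summed level of the 9 subunits was 3114, 3106 and 3280.0 CPM in young and 3120, 2282 and 2330 CPM in old libraries. Of the old libraries, replicate 1 was at 98.5% of the young mean, and old replicates 2 and 3 were at 72.1% and 73.6%. The mean sum was 3167 ± 98.01 CPM in young and 2577 ± 470.4 CPM in old cells, 0.814 of the young value, and no test was made of the sum. Of the markers of proliferating cells, 8 of 8 measured had a negative fold change (48.0% of all genes), 3 of them with all old libraries below the young (14.7% of all genes). Their sum was 600.4, 395 and 593 CPM in young and 430.2, 151 and 128 CPM in old libraries. In that sum old replicate 1 was above young replicate 2 and the other old libraries were below all young. Their part in the subunit values was not tested.

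**Figure D5:**
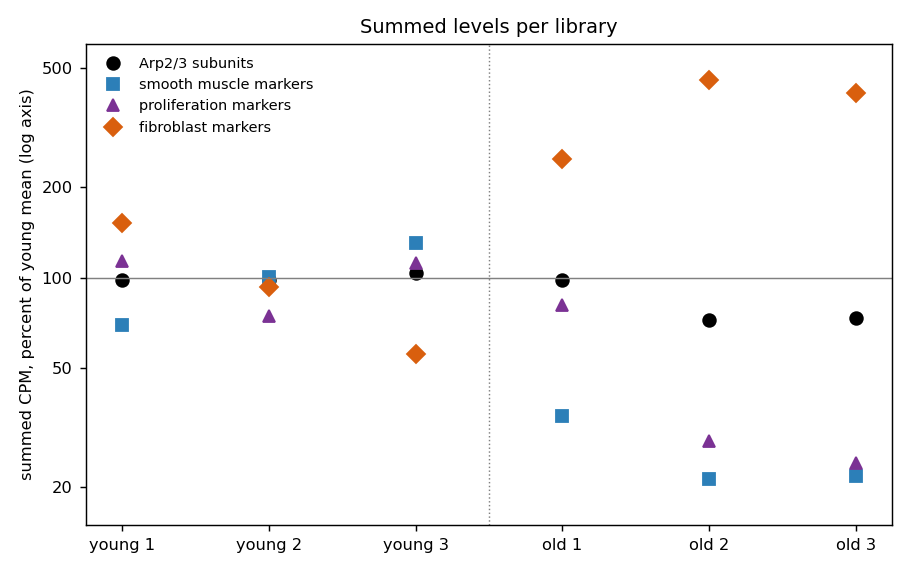
Summed CPM in each of the 3 young and 3 old libraries, as percent of the young mean on a log axis. The sums cover the 9 Arp2/3 subunit genes, the 8 smooth muscle, the 8 proliferation and the 7 fibroblast markers. For the subunits old replicate 1 (98.5%) sat with the young libraries, and old replicates 2 and 3 (72.1% and 73.6%) were below them.

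Other marker lists were read beside the subunits in the same way. All old libraries, old replicate 1 included, were below the young for 7 of 8 smooth muscle markers, against 14.7% of all genes. The list median was −1.96 on the log2 scale. Of the 8 markers, 6 were DEGs by DESeq2 (0 by edgeR), against 5.68% of the genes DESeq2 tested. DESeq2 also called Dcn and Col14a1 higher among the fibroblast markers and Myh1 and Myh2 lower among the skeletal muscle markers. Of 7 fibroblast markers, 7 had a positive fold change and 3 had all old libraries above the young, against 14.5% of all genes. Their sums were 245 to 665 CPM in young and 1094 to 1996 CPM in old libraries. Endothelial markers (6 of 8 listed measured) summed to 29.2 to 43.0 CPM in young and 31.2 to 44.1 CPM in old libraries, and leukocyte markers (3 of 10 measured) to 5.13 to 16.0 and 10.4 to 16.8 CPM. Skeletal muscle markers (3 of 8 measured) summed to 88.9 to 190 CPM in young and 3.19 to 39.2 CPM in old libraries, and Schwann cell markers (3 of 5 measured) to 13.5 to 75.5 and 54.9 to 86.4 CPM. The part of each of these in the Arp2/3 values was not tested.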

How the data were processed

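RNA of cultured SFA VSM cells from 3 young and 3 old rats was sequenced as paired reads from stranded poly(A) libraries. The authors deposited raw counts per gene, not normalized. Per the submitters' processing notes the tools included cutadapt 3.5, Trim Galore 0.6.7, STAR 2.7.10b and featureCounts of Subread 2.0.8, and the Methods name the rat assembly Rnor 6.0. How mates and multi-mapped reads were treated is not stated there. Of the counts from 1 to 19, 68.7% to 71.1% per library were even, so counting error may be larger than a count implies. The total counts of every library also exceed the reads per sample that the Methods give. Subunit counts ran from 1272 to 42752 per library. The counting error of the lowest was 2.80% if each count is independent, and larger if mates were counted separately.

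Groups came from the age in the sample labels. Counts of all 14475 genes were fitted with edgeR 4.0.16 in R 4.3.3 (TMM scaling, age as the single term, quasi-likelihood F test, Benjamini-Hochberg adjustment over all genes). DEGs passed 0.05 after adjustment with a log2 fold change of 1 or more in either direction. CPM used TMM-scaled library sizes. Paralog ratios were tested by exact permutation. DESeq2 1.42.0 (292 genes without an adjusted p), limma-voom 3.58.1, RLE or library-size scaling, a filter at 1 CPM, the replicate block and leaving out each library were alternatives. The fits were tested on simulated data. In each list around the complex, the text names the 2 genes with the highest mean CPM and the 2 with the lowest unadjusted p. The members and lists were chosen with earlier results of these data known. Transcript lengths were not used here, so levels are not compared between genes.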

Additional observations from a re-analysis of the deposited data

How the results depend on the processing

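Over 12 alternatives, 108 of 108 subunit fold changes kept their sign, as did 293 of 299 for the 25 other named genes. Over all genes, 1 DEG by edgeR became 805 by DESeq2, 0 by limma-voom, 1767 by DESeq2 with no fold limit and 1380 by edgeR with no fold limit and old replicate 1 left out (both added after the data were seen). Leaving out 1 library gave 0 to 732 DEGs, with 732 without old replicate 1 and 5 without young replicate 1; the cause was not tested. Dropping the fold limit in edgeR with all libraries gave 1 gene and 0 subunits. Subunit DEGs stayed at 0 throughout, apart from 1 by DESeq2 with no fold limit and 5 with no fold limit and old replicate 1 left out. Separate subunits ranged from 3 to 8 with 1 library left out, 8 being without old replicate 1. Leaving out 1 library also turned the sign of near-zero log2 fold changes, which ranged from −0.13 to 0.066 for Cttn, −0.28 to 0.0081 for Gmfb, −0.058 to 0.058 for Capzb and −0.12 to 0.0019 for Inf2, and of the log2 Actr3b to Actr3 ratio difference (−0.014 to 0.28). Scaling moved the all-gene median by at most 0.015. Deviations of same-numbered libraries from their group means were correlated at 0.063 to 0.32, and those of differently numbered ones at −0.46 to 0.35. With 3 libraries per group these values cannot decide whether the numbers pair the samples. The replicate block gave 1 DEG and 0 subunits.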

Other observations

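The pattern of the subunits over the 6 libraries was shared by other genes. Of 8834 genes outside the complex with a mean of at least 10 CPM, the 5 whose log2 CPM was most like the mean of the centred subunit values (Pearson r over 6 libraries, a description with no test) were Vdac1, a gene without a symbol (ENSRNOG00000008124), Prelid3b, Utp18 and Nmd3, with r from 0.997 to 0.999. Vdac1, which encodes a channel of the outer mitochondrial membrane, was at 173, 172 and 180.1 CPM in young and 172, 118 and 121 CPM in old libraries, and its log2 fold change was −0.35 (adjusted p = 0.249 by edgeR). As for the subunits, old replicate 1 sat with the young libraries and the other old ones were lower. All of these values come from the same 6 libraries, and genes are not independent replicates.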
